A study of Homo sapiens with 4 samples.

Results

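The genes described here encode the factors that start protein synthesis and carry it along the mRNA, the eukaryotic initiation factors (eIF) and elongation factors (eEF), together with proteins that regulate them. They were chosen by symbol from the deposited count table, and not by any measured value. Of 72 symbols beginning with EIF1 to EIF6, EEF1 or EEF2, 5 were left out by name (the EIF2AK kinases and EIF4ENIF1) and 2 as pseudogenes, which left 65 of the 27011 genes in the table. Of these, 58 were factor genes, counting the 4E-binding proteins and the eEF2 kinase, and 7 were listed apart, namely 4 antisense RNA genes, the methyltransferase genes EEF1AKMT1 and EEF2KMT and the readthrough gene EEF1E1-BLOC1S5. The test for differential expression covered 59 of the 65.

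RNA-Seq was performed on HEK293T cells, an established human embryonic kidney line, and the question was how the transcriptome changes without HELZ, a putative RNA helicase. The 2 WT libraries came from wild-type cells and the 2 HELZ-null libraries from a line made by Cas9 editing, in which a small deletion shifts the reading frame of the helz gene. No cells were treated, both groups were plated alike before harvest, and the replicates were biological. The null cells came from 1 edited line, so an effect of the genotype cannot be told apart from other differences between that line and its parent, and whether it is a single clone is not given in the sources used here.

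Initiation begins when eIF2, loaded with GTP and the initiator tRNA, joins the small ribosomal subunit with eIF1, eIF1A, eIF3 and eIF5, and this complex is brought to the capped mRNA by eIF4F, which consists of the cap-binding protein eIF4E, the scaffold eIF4G and the helicase eIF4A. After start codon recognition the large subunit joins with the help of eIF5B, eIF2B reloads eIF2 with GTP, and elongation is driven by eEF1A, which delivers aminoacyl-tRNAs, its exchange complex eEF1B, and the translocase eEF2. Many mRNAs of this machinery, those of elongation factors above all, begin with a 5′ terminal oligopyrimidine tract (TOP), through which their translation responds to growth signals.

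Library totals ranged from 41745401 to 70464140 counts, and the 10978 genes tested held 97.8% of each. Values per library are CPM, that is, counts scaled to a common library size with TMM factors, and log2FC is the log2 ratio of HELZ-null to WT. A gene was called, as up- or down-regulated, at an FDR (the Benjamini-Hochberg adjusted p of edgeR's quasi-likelihood test over all 10978 genes) under 0.005. HELZ itself was at 97.7 and 101.7 CPM in WT and at 36.2 and 37.1 CPM in HELZ-null libraries (log2FC -1.44, FDR 2.13e-27). Of the markers of the line, VIM, NEFL and NEFM were abundant in all libraries and PAX2 was at 5.08 to 6.91 CPM. NEFM was up-regulated (231 and 427 CPM as WT and HELZ-null means, log2FC 0.89), a larger change than that of any member, and VIM was down-regulated (log2FC -0.14), and their part in the results was not tested. By contrast, the leukocyte marker PTPRC and the hepatocyte marker ALB were at 0 counts in 3 of 4 libraries each. The fibroblast marker COL1A1, at 14.0 to 15.6 CPM, was above PAX2 and was not called. In these bulk libraries, fewer cells that express a gene and less of its RNA per cell cannot be told apart.

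A part of the translation factor transcripts was slightly less abundant in HELZ-null cells. Of the 59 tested genes 18 (30.5%) were down-regulated and 2 (3.39%), EIF5B and EEF1A2, were up-regulated. Over all tested genes 15.5% were down- and 13.9% up-regulated. Of the 18 down-regulated genes 5 belonged to the preinitiation complex factors, 5 to eIF4F and its cofactors, 5 to the elongation factors, 2 to eIF3 and 1 to the 4E-binding proteins. Differences between these groups were not tested. All changes were small, with a median absolute log2FC of 0.16 among the 20 called genes, and a range from -16.4% for EEF1A1 to +18.9% for EIF5B.

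The log2FC was below 0 for 44 of the 59 genes and above 0 for 15, with a median of -0.060. Over all 10978 tested genes it was below 0 for 5516 and above 0 for 5455, with a median of -0.00091. The libraries of the groups did not overlap for 42 of the 59 genes (71.2%), which is close to the 70.6% of all tested genes. Of the 59 genes, 34 were lower and 8 higher in both HELZ-null libraries, next to 35.7% lower and 34.9% higher of all tested genes. The share of genes called also varied with the level. Among the 40 members at 100 CPM or more, 15 (37.5%) were down- and 2 (5.0%) up-regulated, against 22.0% and 16.3% of the 2455 tested genes at that level. The number of calls depended on the scaling and on single libraries. Over all tested genes, too, fewer were called without either HELZ-null library. With library totals in place of TMM factors, the median of all genes moved to 0.032, with 1317 of them down- and 2123 up-regulated. Of the members, 11 were down- and 4 up-regulated in that setting. Without HELZ-null replicate 1, 10 were down-regulated, and without HELZ-null replicate 2, 8 were, with 2 up-regulated in both cases. No change passed a test against a minimum fold change of 1.2 (edgeR, 0 of 59 genes also at an unadjusted p under 0.05), a test passed by 217 genes with higher and 318 with lower abundance in the whole table. The p-values measure the spread between these 4 libraries only.

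**Figure D1:**
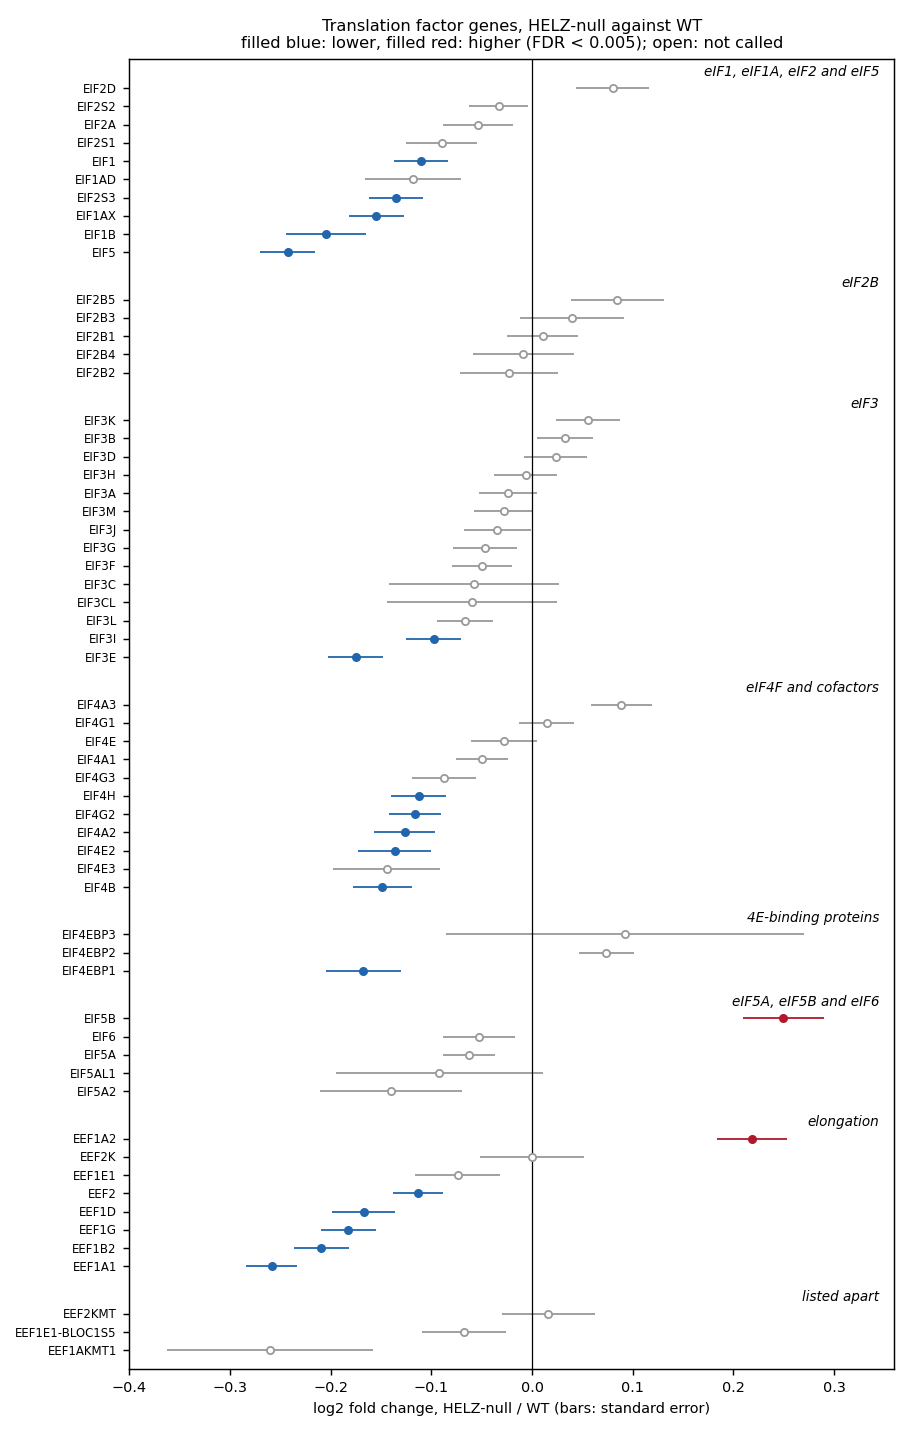
Log2 fold change (HELZ-null over WT, x axis) of the 59 tested genes, ordered within each factor group, with bars for the standard error and n = 2 libraries per group. Filled blue points mark the 18 down-regulated genes, filled red points EIF5B and EEF1A2, and open points genes not called. The eIF2B genes lie around 0, and the elongation factors other than EEF1A2 and EEF2K lie below it.

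The mRNA starts of these genes are shown because a terminal pyrimidine run is the feature for which many of them are known. Windows of 25 bases were taken from the RefSeq promoter sequences of the build GRCh38.p14, with 10 bases before the annotated start and 15 from it. A run was a C at the annotated start followed without a gap by at least 4 more C or T, searched on the sense strand at that position only, and it is printed in capitals. An entry was found for 47 of the 59 tested genes, and 12 of these (25.5%) had a run, next to 656 of 8526 tested genes with an entry (7.69%) and 1404 of all 27305 genes with an entry (5.14%). Over single promoters, 4.07% of 35116 had one. The 6 of these 12 genes that were down-regulated come first.
EEF1A1, chr6:73521018-73521042, minus strand: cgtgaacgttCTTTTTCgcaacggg
EEF1B2, chr2:206159885-206159909, plus strand: ctcttcgggtCCTTTTTCCTCTCTT
EEF2, chr19:3985449-3985473, minus strand: cgtcagcgttCTCTTCCgccgtcgt
EIF2S3, chrX:24054946-24054970, plus strand: gatttccttcCTCTTTTggcaacat
EIF4A2, chr3:186783567-186783591, plus strand: gcgccgctgtCTTTTCagtcgggcg
EIF4B, chr12:53006446-53006470, plus strand: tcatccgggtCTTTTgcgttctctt
EIF2A, chr3:150546777-150546801, plus strand: cgagcggtttCTCTTTCCgggacaa
EIF2D, chr1:206612451-206612475, minus strand: ccagccgggcCCTTTTCgcggccgg
EIF3D, chr22:36529152-36529176, minus strand: cgcatgtttcCTCTTTTCCTggttt
EIF3F, chr11:7987327-7987351, plus strand: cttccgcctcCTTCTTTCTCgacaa
EIF3K, chr19:38619178-38619202, plus strand: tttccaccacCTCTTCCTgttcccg
EIF3M, chr11:32583821-32583845, plus strand: gcccagttccCTTTTCCggtcggcg

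The runs were between 5 bases, in EIF4B, and 16 bases, in EEF1B2, of which the window shows 15, and EEF1B2 has another annotated start without a run. Of the genes without a run, these windows belong to a gene that fell in abundance and has a well known TOP mRNA (EEF1G), to another that fell (EIF1AX) and to the initiation factor gene that rose (EIF5B).
EEF1G, chr11:62573877-62573901, minus strand: cgggcggcttactttgcggcagcgc
EIF1AX, chrX:20141824-20141848, minus strand: gagtcgcggcgccatttgctgccgc
EIF5B, chr2:99337379-99337403, plus strand: ctgagaactcacaccatatgtgtcc

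Among the 12 genes with a run, EEF1A1, EEF1B2, EEF2, EIF2S3, EIF4A2 and EIF4B were down-regulated, and the other 6, among them all 4 of the eIF3 genes with a run, were not called (median log2FC of the 12 genes -0.083). No gene with a run was up-regulated (edgeR, 1 gene above 0 at an unadjusted p under 0.05, and 0 genes by DESeq2). Of the 35 genes without a run 9 were down- and 1 up-regulated, with a median log2FC of -0.063. The order of these medians was not stable, with -0.048 for the 12 and -0.055 for the 35 genes after GC correction, and -0.050 and -0.029 with library totals. The counts depended on single libraries, as did those over all tested genes. Without HELZ-null replicate 1, 4 of the 12 and 4 of the 35 genes were down-regulated, and without HELZ-null replicate 2, 2 of the 12 (EEF1A1 and EEF1B2) and 4 of the 35. With library totals 4 of the 12 were down-regulated, and 4 of the 35 were down- and 3 up-regulated. Of all 10978 tested genes, 1317 were down- and 2123 up-regulated in that setting. Over all tested genes, 23.8% of those with a run and 15.1% of those without one were down-regulated, and 11.9% and 14.1% were up-regulated. The remaining 12 members, which include EEF1D, EIF3E and EEF1A2, had no entry, and 3 of them were down- and 1 up-regulated.

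**Figure D2:**
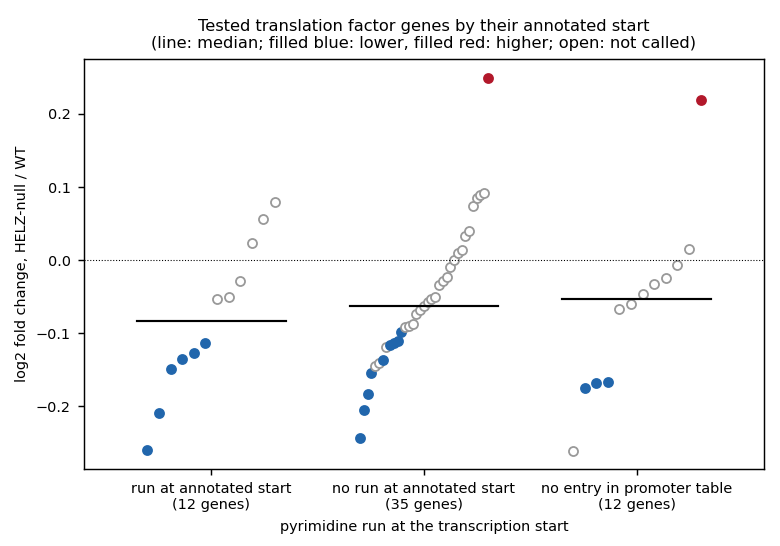
Log2 fold change (HELZ-null over WT, y axis) of the 59 tested genes by their annotated start, with a line at each median. Of 12 genes with a pyrimidine run at the annotated start 6 are down-regulated (filled blue), of 35 without one 9 are, and of 12 without an entry 3 are. The red points are EIF5B and EEF1A2.

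A list of 9 factor genes with well known TOP mRNAs was named from general knowledge, with earlier results of these data known. It gave 7 down-regulated genes (EEF1A1, EEF1B2, EEF1D, EEF1G, EEF2, EIF3E and EIF4B), while EIF3F and EIF3H were not called. The median log2FC of the 9 genes was -0.17. Over all tested genes 15.5% were down-regulated, and 22.0% of those at 100 CPM or more. The other 47 tested factor genes had a median of -0.053, with 11 down- and 2 up-regulated. These 47 also include genes with a run, of which EIF2S3 and EIF4A2 were down-regulated and EIF2A, EIF2D, EIF3D, EIF3K and EIF3M were not called. DESeq2 also called 7 of the 9 as lower. Without HELZ-null replicate 2, 4 of the 9 and 4 of the other 47 genes were down-regulated, and without HELZ-null replicate 1, 6 of the 9 and 4 of the 47. With library totals 6 of the 9 were down-regulated, and 5 of the 47 were down- and 4 up-regulated. Of all 10978 tested genes, 1317 were down- and 2123 up-regulated in that setting.

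Among the factors of the preinitiation complex (eIF1, eIF1A, eIF2, eIF5 and related proteins), 5 of 10 tested genes were down-regulated, next to 15.5% of all tested genes, and none was up-regulated (edgeR, 1 gene above 0 at an unadjusted p under 0.05 and 0 by DESeq2). The median log2FC was -0.11, and 9 of the 10 genes were lower in both HELZ-null libraries than in both WT libraries, as were 35.7% of all tested genes. Without HELZ-null replicate 2, 3 of the 10 were down-regulated. EIF5 (chr14:103799881-103811362, plus strand, GRCh37), which encodes the GTPase-activating protein of eIF2, showed the largest decrease among the initiation factors. It was at 479.1 and 482.8 CPM in WT and at 404.8 and 407.9 CPM in HELZ-null libraries (log2FC -0.24, SE 0.027, FDR 1.58e-09). Expression fell by 15.5%, many times the gap between replicates.

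EIF1 and EIF1B encode near-identical factors that keep the scanning ribosome from starting at wrong codons, and both were down-regulated. EIF1 was at 664.3 and 672.2 CPM in WT and at 624.9 and 613.3 CPM in HELZ-null libraries (log2FC -0.11, SE 0.027, FDR 0.000912). EIF1B was at 76.1 and 74.4 CPM in WT and at 65.7 and 65.0 CPM in HELZ-null libraries (log2FC -0.20, SE 0.040, FDR 5.07e-05). The call of EIF1 was lost with library totals and without either HELZ-null library, with a log2FC between -0.12 and -0.097 over the single libraries left out. The decrease in EIF1B was shared by its surroundings. The median log2FC of the tested genes next to it, up to 20 on each side, was -0.29, so relative to its neighbours EIF1B was higher by 0.089. Of the 20 called members, the other 19 kept their direction after this subtraction.

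EIF1AX, which encodes eIF1A, a factor needed for scanning and start codon recognition, was at 547.3 and 554.4 CPM in WT and at 499.9 and 489.9 CPM in HELZ-null libraries (log2FC -0.15, SE 0.027, FDR 1.24e-05). Its call was lost after correction for GC content, where the log2FC was -0.079 (FDR 0.015). The Y-linked copy EIF1AY had 0 counts in every library. The eIF2 subunits differed in their calls. EIF2S3, the gamma subunit that binds GTP and the initiator tRNA, was at 553.2 and 557.5 CPM in WT and at 506.7 and 504.5 CPM in HELZ-null libraries (log2FC -0.14, SE 0.027, FDR 7.87e-05), a call lost without HELZ-null replicate 2 (log2FC between -0.14 and -0.13 over the single libraries left out). EIF2S1, the alpha subunit phosphorylated under stress, had a log2FC of -0.090 (FDR 0.034) and EIF2S2, the beta subunit, one of -0.033 (FDR 0.38), neither of them called. Whether the subunits differed from each other was not tested. EIF2A and EIF2D, which encode alternative initiator tRNA factors, had values of -0.054 and 0.080 and were not called.

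None of the 5 genes of eIF2B, the exchange factor of eIF2, was called (edgeR and DESeq2, 0 genes also at an unadjusted p under 0.05). Of all tested genes, 15.5% were down- and 13.9% up-regulated. The median log2FC of the 5 eIF2B genes was 0.010, with 0.052 without WT replicate 1 and -0.020 without WT replicate 2. EIF2B5, the catalytic subunit, was at 53.9 and 50.1 CPM in WT and at 54.0 and 56.4 CPM in HELZ-null libraries (log2FC 0.085, 95% confidence interval -0.0090 to 0.18). EIF2B1, the regulatory alpha subunit, had a log2FC of 0.010 (95% confidence interval -0.062 to 0.082). The groups overlapped for 4 of the 5 genes, whereas they did not overlap for 70.6% of all tested genes. The eIF2B genes were also expressed at lower levels per length than most factors, from 18.2 FPKM (EIF2B3) to 54.9 FPKM (EIF2B1). The eIF2 subunit genes were at 153.1 (EIF2S3), 90.7 (EIF2S2) and 25.6 FPKM (EIF2S1), the last within the eIF2B range. FPKM is used here for levels between genes, and was computed from the counts and the deposited gene width.

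eIF3 is the largest initiation factor and holds the small subunit and the mRNA together. EIF3E and EIF3I of 14 tested genes (14.3%) were down-regulated, a share near the 15.5% of all tested genes, none was up-regulated (edgeR and DESeq2, 0 genes above 0 at an unadjusted p under 0.05), and the median log2FC was -0.040. The median was 0.00065 without WT replicate 1, -0.018 without HELZ-null replicate 1, -0.0027 with the GC correction and -0.0071 with library totals. EIF3E was at 472.1 and 469.0 CPM in WT and at 418.1 and 415.5 CPM in HELZ-null libraries (log2FC -0.18, SE 0.027, FDR 1.60e-06). EIF3I was at 505.6 and 499.9 CPM in WT and at 469.0 and 470.8 CPM in HELZ-null libraries (log2FC -0.098, SE 0.027, FDR 0.00344). EIF3E kept its call after GC correction with a smaller log2FC of -0.12, while that of EIF3I was lost with library totals (log2FC -0.064) and without either HELZ-null library (log2FC between -0.10 and -0.090 over the single libraries left out). The 12 other genes had values between -0.066 (EIF3L) and 0.056 (EIF3K). The large subunits EIF3A and EIF3B, which form the core of the complex, had values of -0.024 and 0.033. EIF3C and EIF3CL are near-identical copies with almost the same number of counts in each library, for example 999 and 1003 in WT replicate 1, and a level of 2.04 and 2.29 FPKM, far below the other subunits. How the counting divided reads between them is not given in the sources used here, so the values of both are uncertain.

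Of the genes of eIF4F and its cofactors 5 of 11 tested were down-regulated, next to 15.5% of all tested genes and 22.0% of those at 100 CPM or more, with a median log2FC of -0.11, and none was up-regulated (edgeR and DESeq2, 1 gene above 0 at an unadjusted p under 0.05). The cap-binding subunit and the main scaffold were not among those called. EIF4E had a log2FC of -0.028 (95% confidence interval -0.095 to 0.039) and EIF4G1 one of 0.015 (95% confidence interval -0.040 to 0.069), and the groups overlapped for both. The calls concerned the helicase cofactors EIF4B and EIF4H, which stimulate eIF4A, and 1 paralogue each of eIF4A, eIF4E and eIF4G. Whether the paralogues differed from each other in their changes was not tested.

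EIF4B was at 508.3 and 484.5 CPM in WT and at 455.9 and 440.5 CPM in HELZ-null libraries (log2FC -0.15, SE 0.029, FDR 5.37e-05). EIF4H was at 635.5 and 616.9 CPM in WT and at 579.0 and 579.6 CPM in HELZ-null libraries (log2FC -0.11, SE 0.027, FDR 0.000829). The groups did not overlap for either gene, as for 70.6% of all tested genes and 76.7% of those at 100 CPM or more. EIF4G2, also known as DAP5, which supports initiation without binding eIF4E, was at 1720 and 1718 CPM in WT and at 1583 and 1590 CPM in HELZ-null libraries (log2FC -0.12, SE 0.025, FDR 0.000252). EIF4G3, a close relative of EIF4G1, had a log2FC of -0.087 and was not called (FDR 0.023).

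EIF4A1 and EIF4A2 encode near-identical helicases, and EIF4A3 encodes the helicase of the exon junction complex. EIF4A2 was at 200.9 and 204.7 CPM in WT and at 186.4 and 185.2 CPM in HELZ-null libraries (log2FC -0.13, SE 0.030, FDR 0.000775). EIF4A1 had a log2FC of -0.050 (FDR 0.12) and EIF4A3 one of 0.089 (FDR 0.015), and neither was called. The ratio of EIF4A1 to EIF4A2 per length was 7.32 and 6.94 in WT and 7.47 and 7.57 in HELZ-null libraries. EIF4E2 (4EHP), a cap-binding relative that takes part in translational repression, was at 94.3 and 95.4 CPM in WT and at 87.2 and 85.4 CPM in HELZ-null libraries (log2FC -0.14, SE 0.036, FDR 0.00206). EIF4E3 had a log2FC of -0.14 with a larger SE of 0.053 and was not called (FDR 0.024).

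The decreases in this group were the least stable of those described. With library totals as the scaling, 1 of the 11 genes, EIF4B, was down-regulated and EIF4A3 was up-regulated. Without HELZ-null replicate 2 none was called, and without HELZ-null replicate 1 EIF4B was the only one (edgeR). The log2FC of the 5 genes stayed between -0.18 (EIF4B) and -0.091 (EIF4H) when single libraries were left out. EIF4E2 was also lost with DESeq2 and without WT replicate 2, and EIF4A2 after GC correction (log2FC -0.087). The germline paralogue EIF4E1B had 5 and 0 counts in WT and 0 and 2 in HELZ-null libraries and was not tested.

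The 4E-binding proteins compete with eIF4G for eIF4E and are released from it when mTOR phosphorylates them. EIF4EBP1 was down-regulated, from 96.7 and 101.2 CPM in WT to 85.5 and 90.1 CPM in HELZ-null libraries (log2FC -0.17, SE 0.037, FDR 0.000321). EIF4EBP2 was at 402.9 and 407.6 CPM in WT and at 428.8 and 424.2 CPM in HELZ-null libraries, and this difference was not called (log2FC 0.074, FDR 0.028). The ratio of EIF4EBP2 to EIF4EBP1 per length was 0.48 and 0.46 in WT and 0.57 and 0.54 in HELZ-null libraries. The groups did not overlap in this ratio. EIF4EBP2 was called as higher with library totals and after GC correction, and the call of EIF4EBP1 was lost without HELZ-null replicate 1 (log2FC between -0.21 and -0.13 over the single libraries left out). EIF4EBP3 was at 2.34 to 3.20 CPM and was not called.

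EIF5B (chr2:99953834-100017789, plus strand, GRCh37), which encodes the GTPase that joins the ribosomal subunits, was the initiation factor gene that rose. It was at 102.1 and 114.6 CPM in WT and at 123.1 and 133.1 CPM in HELZ-null libraries (log2FC 0.25, SE 0.040, FDR 2.82e-06). The replicates of EIF5B differed more than those of most members, though the groups did not overlap. With DESeq2 its adjusted p was 0.042, and the log2FC ranged from 0.16 to 0.33 when single libraries were left out. EIF5A, the hypusinated factor that assists peptide bond formation at difficult sequences, was among the most abundant factors (627 FPKM), with a log2FC of -0.063 (FDR 0.048). The ratio of EIF5A to EIF5A2, its tissue-restricted relative, was 177 per length in WT and 188 in HELZ-null cells, as means of 2 libraries. EIF6, an anti-association factor of the large subunit, and EIF5AL1, a close copy of EIF5A whose counts may include reads of its parent, were not called.

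Of the 8 elongation factor genes 5 were down- and 1 up-regulated, with a median log2FC of -0.14, next to 15.5% and 13.9% of all tested genes. Without HELZ-null replicate 2, 3 of the 8 were down-regulated. EEF1A1 (chr6:74199031-74235310, minus strand, GRCh37), which encodes the main eEF1A, had the most counts of all genes in the table. It was at 10259 and 9844 CPM in WT and at 8396 and 8405 CPM in HELZ-null libraries (log2FC -0.26, SE 0.025, FDR 2.81e-11). The HELZ-null libraries were nearly equal and far below both WT libraries.

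EEF1A2 (chr20:62119366-62130592, minus strand, GRCh37) encodes the eEF1A of neurons and muscle and moved in the opposite direction. It was at 101.4 and 104.7 CPM in WT and at 120.5 and 119.1 CPM in HELZ-null libraries (log2FC 0.22, SE 0.035, FDR 1.81e-06). The ratio of EEF1A1 to EEF1A2 per length was 57.8 and 53.8 in WT and 39.8 and 40.3 in HELZ-null libraries. EEF1A1 thus remained the predominant form in all libraries.

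The 3 genes of eEF1B, the complex that reloads eEF1A with GTP, were all down-regulated. EEF1B2, a catalytic subunit, was at 697.7 and 670.2 CPM in WT and at 594.3 and 589.2 CPM in HELZ-null libraries (log2FC -0.21, SE 0.028, FDR 4.80e-08). EEF1G, the structural subunit, was at 2691 and 2521 CPM in WT and at 2301 and 2293 CPM in HELZ-null libraries (log2FC -0.18, SE 0.027, FDR 6.04e-07). EEF1D, the other catalytic subunit, was at 306.3 and 287.3 CPM in WT and at 270.4 and 259.2 CPM in HELZ-null libraries (log2FC -0.17, SE 0.031, FDR 3.08e-05). The groups did not overlap for any of the 3 genes, as for 70.6% of all tested genes and 76.7% of those at 100 CPM or more. EEF1D was the least stable of them, with a call lost without HELZ-null replicate 2 and a log2FC between -0.21 and -0.12 over the single libraries left out.

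EEF2, the translocase, was at 3126 and 3158 CPM in WT and at 2910 and 2900 CPM in HELZ-null libraries (log2FC -0.11, SE 0.025, FDR 0.000278). This call was lost with library totals and without either HELZ-null library, with a log2FC between -0.12 and -0.10 over the single libraries left out. Its inhibitory kinase EEF2K had a log2FC of 0.00021 (95% confidence interval -0.10 to 0.11). EEF1E1, which encodes a scaffold protein of the aminoacyl-tRNA synthetase complex, was not called (log2FC -0.074, FDR 0.16), and its readthrough gene had nearly the same counts, so that reads of the pair cannot be told apart.

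**Figure D3:**
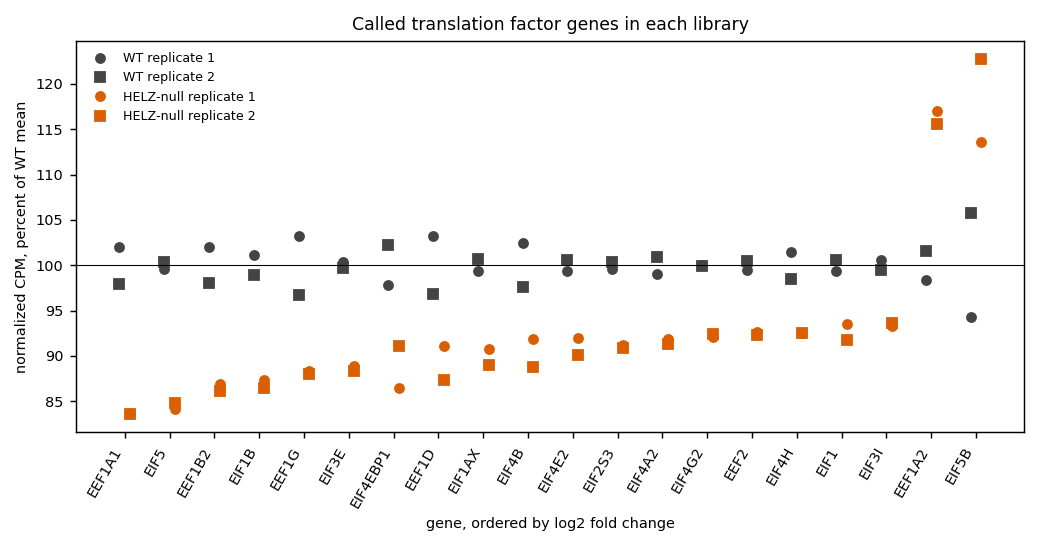
Normalized CPM of the 20 called genes in each of the 4 libraries, as a percentage of the WT mean of the gene (y axis, not starting at 0), ordered by log2 fold change. Grey symbols are WT and orange symbols HELZ-null libraries. Both HELZ-null libraries lie below both WT libraries for 18 genes and above them for EEF1A2 and EIF5B.

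Levels per length spread over 3 orders of magnitude among the tested genes. EEF1A1 (2627 FPKM), EEF1G (1594 FPKM) and EEF2 (957 FPKM) were followed by EIF4A1 (752 FPKM), the most abundant initiation factor gene, EIF5A, EEF1B2 (575 FPKM) and EIF1 (485 FPKM). Among these 7 genes EIF5A and EEF1B2 were the closest neighbours in relative level, at 633.3 and 647.7 against 628.5 and 603.8 FPKM in the WT libraries. All members together made up 3.18% and 3.11% of the counts in WT and 2.91% in both HELZ-null libraries. The elongation group, with EEF2K and EEF1E1 in it, made up 1.71% and 1.65% in WT and 1.49% and 1.48% in HELZ-null libraries. EEF1A1 alone made up 1.01% and 0.974% in WT and 0.850% in both HELZ-null libraries. The initiation factor genes made up 1.46% and 1.44% in WT and 1.41% in both HELZ-null libraries.

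**Figure D4:**
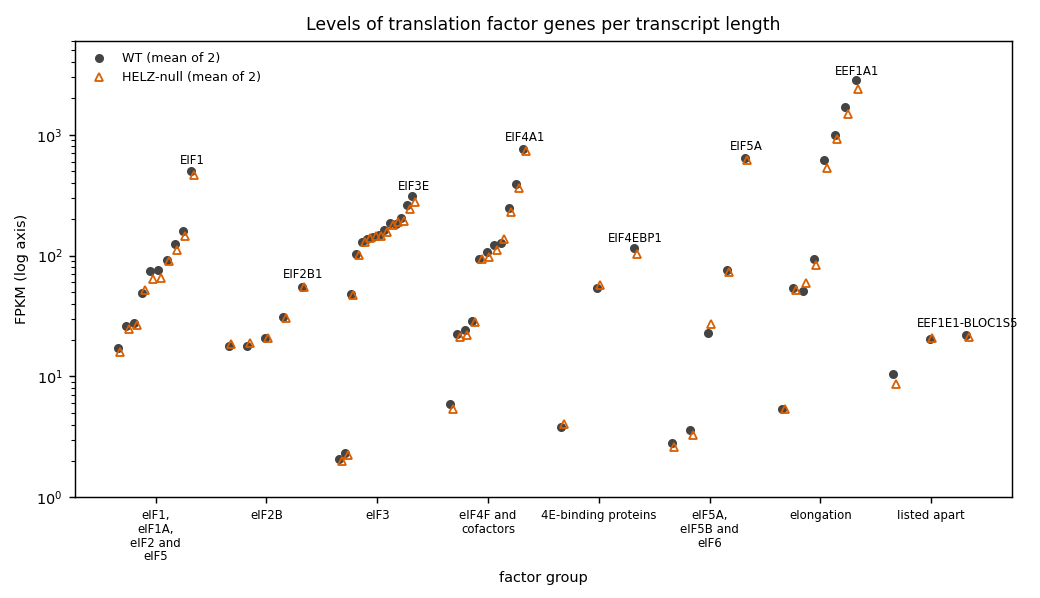
Mean FPKM of the tested genes (y axis, log scale) in WT (grey circles) and HELZ-null cells (orange triangles), means of 2 libraries, by factor group and with the most abundant gene of each group named. Levels run from about 2 FPKM, for EIF3C, to 2627 FPKM for EEF1A1 (mean of all 4 libraries), and differences between genes are far larger than those between genotypes.

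Of the 7 genes listed apart, the 3 tested were not called and the 4 antisense genes were not tested. EEF1AKMT1, which encodes a methyltransferase of eEF1A, had a log2FC of -0.26, as large as that of EEF1A1, but with an SE of 0.10 at 7.81 to 10.05 CPM (FDR 0.036). EEF2KMT, a methyltransferase gene of eEF2, had a value of 0.016. The antisense genes EIF1AX-AS1, EIF1B-AS1 and EIF2B5-AS1 had at most 45 counts in any library. EIF3J-AS1 had 339 and 203 counts in WT and 272 and 416 in HELZ-null libraries, and when all genes with a count were fitted its log2FC was 0.26 (SE 0.12). The use of strand in counting is not given in the sources used here, so antisense reads may be mixed with those of the partner gene.

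Other genes of the translation pathway were taken from a list of 33 genes of termination, recycling, poly(A) binding and factor regulation, of which 32 were tested. Of these 7 (21.9%) were down- and 2 (6.25%) up-regulated, with a median log2FC of -0.0092, next to the 15.5% and 13.9% of all tested genes and the 22.0% and 16.3% of those at 100 CPM or more. This median was -0.021 without HELZ-null replicate 1, 0.011 without HELZ-null replicate 2 and 0.024 with library totals. The number of the 32 genes called changed as well. Without HELZ-null replicate 1, 4 were down-regulated, without HELZ-null replicate 2, 5 were, and with library totals 5 were down- and 4 up-regulated. The largest differences were in the kinases that phosphorylate EIF2S1. EIF2AK4 (GCN2), the sensor of uncharged tRNA, was at 88.0 and 86.3 CPM in WT and at 47.0 and 49.7 CPM in HELZ-null libraries (log2FC -0.85, SE 0.042). EIF2AK2 (PKR), the sensor of double-stranded RNA, had a log2FC of -0.38 (SE 0.048). EIF2AK1 had a value of 0.014 and EIF2AK3 (PERK) one of 0.21, both not called. MTOR, whose product phosphorylates the 4E-binding proteins and the S6 kinases, rose (log2FC 0.22, SE 0.034), and RPS6KB2, an S6 kinase gene, fell (log2FC -0.24, SE 0.043). PDCD4, an inhibitor of eIF4A, rose (log2FC 0.18, SE 0.036), and DDX3X, a helicase of scanning, fell (log2FC -0.21, SE 0.027). The ribosome rescue and recycling genes PELO (log2FC -0.21) and ABCE1 (log2FC -0.14) were down-regulated, the latter in a stretch of genes whose median was -0.15, as was PABPC4 (log2FC -0.11). PABPC1, the main poly(A)-binding protein gene, and LARP1, a repressor of TOP mRNAs, had values of -0.015 and 0.0085. GSPT2 had 0 counts.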

How the data were processed

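RNA-Seq libraries (RNeasy, TruSeq, paired-end) were from HEK293T cells, 2 WT and 2 HELZ-null. Per their methods and processing notes, the authors filtered out ribosomal RNA (Bowtie2), aligned to hg19 (TopHat2) and obtained gene counts with QuasR, which they deposited without scaling. Versions, gene annotation, use of strand and counting of mates are not given in the sources used here. A second deposited table holds the authors' edgeR comparison (log2 values and p-values), of which only the list of 10978 genes, selected by the authors by FPKM, was used. FPKM was computed here from counts and the deposited gene width. All 4 count columns belonged to a known library.

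The quasi-likelihood test of edgeR 4.0.16 (R 4.3.3, limma 3.58.1, glmQLFit and glmQLFTest) was fitted to all 10978 genes with genotype as the only term, TMM factors (0.987 to 1.01) and Benjamini-Hochberg adjustment, and calls were made at an FDR under 0.005. The biological coefficient of variation was 2.60%. Standard errors were derived from log2FC and the F statistic. The floor of 3 counts corresponds to 0.042 to 0.072 CPM and covers counting error only. Replicates differed beyond sampling noise (chi-square per degree of freedom 4.16 over 10958 genes in WT, 3.01 over 10960 in HELZ-null). The count totals are well above the mapped reads stated in the methods, so both mates of a pair may have been counted, and with counts halved these values were 2.08 and 1.51. The fit was tested on simulated data.

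The members, factor groups and gene lists were chosen with earlier results of these data known, and lists have no test of their own. Genes were named if called, if most abundant in their group, or as part of fixed paralogue sets, as EIF2B1 and EIF2B5, as untested members or as called pathway genes, and any others after their values were seen. Gene positions came from GENCODE on GRCh37, start windows from RefSeq on GRCh38.p14, matched by symbol. Alternatives were DESeq2 1.42.0, library totals, other gene filters, halved counts, a GC correction, a replicate block, a minimum fold change of 1.2, an FDR of 0.05, subtraction of neighbouring genes, and leaving out genes with shared reads or single libraries. Summaries and figures used Python 3.11.15, pandas 2.3.3 and matplotlib 3.10.9.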

Additional observations from a re-analysis of the deposited data

How the results depend on the processing

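Of the 20 calls, 18 were kept by DESeq2 and by the GC correction, 13 with library totals, 20 with each other gene filter and with halved counts, and 0 against a minimum fold change of 1.2, by construction a stricter test (0 up and 0 down in all members and in every factor group). EEF1A1, EEF1A2, EEF1B2, EEF1G, EIF1B, EIF3E and EIF5 kept their call in 12 of 13 settings, all but the minimum fold. DESeq2 gave 1 up-regulated member, and 0 in the group of eIF5A, eIF5B and eIF6. An FDR under 0.05 gave 4 up- and 25 down-regulated members. With library totals there were 4 up- and 11 down-regulated members (median log2FC -0.026), next to 2123 and 1317 of all 10978 tested genes. In this setting the preinitiation group had a median of -0.081, eIF3 had 1 down-regulated gene and a median of -0.0071, eIF4F had 1 up- and 1 down-regulated gene and a median of -0.079, the 4E-binding proteins had 1 up-regulated gene, and elongation had a median of -0.11. With the GC correction the medians were -0.088 for the preinitiation group, -0.0027 for eIF3, -0.086 for eIF4F and -0.17 for elongation, and 1 gene of the 4E-binding proteins was up-regulated. After subtraction of the neighbour median EIF1B was at 0.089. The cause of these shifts was not tested. With single libraries left out, where the lone library is assumed to vary like the other group, 8 to 19 members were down-regulated and medians of all members ran from -0.077 to -0.054. The numbers down-regulated ran from 3 to 5 in the preinitiation group (medians -0.12 to -0.10), from 1 to 2 in eIF3 (medians -0.058 to 0.00065, above 0 without WT replicate 1), from 0 to 5 in eIF4F (0 to 1 up-regulated, medians -0.11 to -0.091), from 0 to 1 in the 4E-binding proteins (medians -0.18 to 0.066, below 0 without HELZ-null replicate 2 and, at -0.035, without WT replicate 2), from 0 to 1 in the group of eIF5A, eIF5B and eIF6, and from 3 to 5 in elongation. The replicate numbers gave no sign of pairing (correlation of replicate deviations 0.034 over 10978 genes, 2 pairs), and a fit with the replicate block kept all 20 calls, 18 down and 2 up, with a median of -0.062. A further 2 alternatives were chosen after seeing the data. Leaving out 4 genes with shared reads left 18 down- and 2 up-regulated, and 17 of the 18 kept their direction after neighbours were subtracted. At these depths counting error is small for most members, and 2 libraries per group limit the precision.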
